A study of Mus musculus with 24 samples.

Results

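The genes followed were the 10 of 55401 genes in the count table whose Ensembl identifiers carried the symbols Slc2a1, Slc2a4, Hk2, Pfkm, Pfkfb1, Pfkfb3, Pfkfb4, Pdk2, Pdk4 and Aspscr1. They were measured by poly-A RNA sequencing of gastrocnemius, the mixed calf muscle, in male C57BL6 mice that were young (4 weeks old on arrival, 5 weeks at injury) or adult (10 weeks on arrival, 11 weeks at injury). Burned mice received a scald over 25% of the body surface, on back and belly and so away from the sampled leg, under isoflurane and buprenorphine, together with lactated Ringer's solution. Sham mice received the anaesthetic and the analgesic without scald or resuscitation fluid, so burn and resuscitation cannot be told apart. The study also names subcutaneous saline before the scald and does not say separately whether sham mice had it. Muscle was taken 24 h after injury, with 3 mice and 3 libraries in each of the groups adult sham, adult burn, young sham and young burn. All 10 genes passed the filter on low counts, both in the 12 libraries and in the 11 without young burn replicate 2, the young burn animal without a column in the study's heat map. Values without it come first because of that, and young burn then has n = 2.

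Glucose enters the muscle fibre through GLUT transporters. GLUT1 (Slc2a1) serves the resting supply, and GLUT4 (Slc2a4) waits in vesicles inside the fibre until insulin or contraction brings it to the surface. Aspscr1 encodes TUG, the tether that holds these vesicles back. Hexokinase (Hk2) traps glucose by phosphorylation, the muscle phosphofructokinase (Pfkm) commits it to glycolysis, and the bifunctional enzymes of the Pfkfb genes make and remove the sugar bisphosphate that activates phosphofructokinase. The kinases Pdk2 and Pdk4 switch off pyruvate dehydrogenase, so that less pyruvate is burned in mitochondria, and Pdk4 is known for its rise in fasting and under glucocorticoids.

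Levels between genes were compared as TMM-scaled CPM, the count of a gene relative to the library's total, per kilobase of exon. In adult sham muscle (n = 3) Pfkm had by far the highest level, 1016 ± 55.5 CPM per kb (SD), followed by Slc2a4 at 224 ± 20.5 and Pdk2 at 126 ± 5.08. Pfkfb3 at 87.9 ± 24.7, Hk2 at 67.6 ± 8.40 and Pdk4 at 66.3 ± 10.5 came next, and the ranges of these neighbours overlapped. Pfkfb1 at 15.7 ± 3.33 and Pfkfb4 at 13.2 ± 1.29 overlapped too, as did Slc2a1 at 4.20 ± 0.621 and Aspscr1 at 3.97 ± 0.361 CPM per kb at the low end. GLUT4 transcript thus stood 54.2 ± 9.75 times above GLUT1 transcript per kilobase in adult sham muscle, 64.4 ± 14.3 times in adult burn and 47.1 ± 6.13 times in young sham. In a whole muscle, fewer cells of a type and less RNA per cell cannot be told apart.

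Total counts per library ran from 4392605 to 5688512. Young burn replicate 2 stood apart from the rest: 11.1% of the genes tested lay over 2-fold from the mean of its group mates, against 1.59% to 4.23% in the other 11 libraries. Muscle markers were present in every library (summed level 64890 CPM or more), and 3 of 4 keratinocyte markers (Krt1, Krt5 and Krt14) were at 0 throughout. The 9 immediate early and heat shock genes (such as Fos, Egr1 and Hspa1a) summed to 744 CPM in young burn replicate 2 and to 174 to 417 CPM in the other 11. Neutrophil markers summed to 27.4 CPM there and to 2.03 to 14.9 CPM elsewhere, with Ly6g at 0 in every library. Slow oxidative fibre genes such as Myh7 and Myl2 summed to 772 CPM there, to 850.2 to 1117 CPM in adult burn and to 1333 to 2673 CPM in the other libraries. The part of these lists in the results below was not tested.

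**Figure D1:**
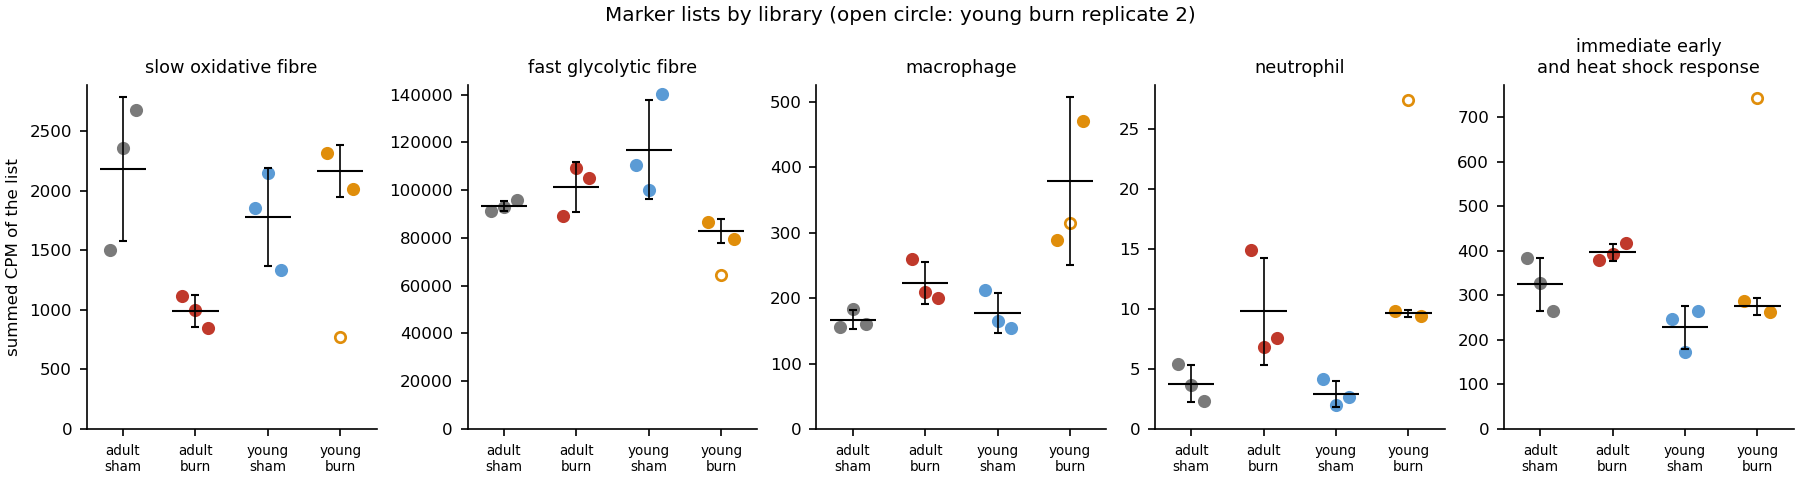
Summed CPM (vertical axis) of 5 marker lists in each library of the 4 groups, with the mean and SD of each group drawn without young burn replicate 2, shown as an open circle. That library is highest for neutrophil and for immediate early and heat shock genes (27.4 and 744 CPM) and lowest for both fibre lists, and the 3 adult burn libraries have less slow fibre RNA (850.2 to 1117 CPM) than the adult sham libraries.

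In young burn replicate 2, 9 of the 10 genes lay outside the range of all other 11 libraries. The share of all genes tested outside that range was not counted. Without that share the 9 are not read as particular to this pathway. By another measure, distance from its group mates, this library stood apart over many genes (11.1% over 2-fold off). Above it were 3 genes. Slc2a1 was at 45.1 CPM there, 4.41 times the mean of the other 2 young burn libraries, Pfkfb4 at 137 CPM was 2.96 times that mean and Aspscr1 at 35.4 CPM was 1.38 times that mean. Below it were 6: Pfkfb3 was at 24.5 CPM, 0.116 times the mean of the other 2, and the ratios were 0.308 for Pfkfb1, 0.488 for Pfkm, 0.685 for Pdk2, 0.717 for Slc2a4 and 0.795 for Hk2. Pdk4, at 189.5 CPM, was 1.06 times that mean and stayed within the range. Egln3, the oxygen-sensing prolyl hydroxylase that is itself a target of hypoxia-inducible factor, had 624 CPM in this library against 20.5 to 104 CPM in the other 11. As 1 library, these values have no replicate, and they are given as a description.

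The promoters of the 3 genes that were above all other libraries in that animal, and of Pfkfb3, which was furthest below, are shown to let these starts be compared (RefSeq, GRCm38.p6, from 250 bases before to 50 after an annotated start, read 5′ to 3′ on the gene's strand). Capitals mark ACGTG, the core of the hypoxia response element, or CACGTG, the E-box read by clock and MYC-type factors, which holds that core on both strands. Aspscr1 is shown at chr11:120672723-120673022 (+), Pfkfb4 at chr9:108991652-108991951 (+), Slc2a1 at chr4:119108495-119108794 (+), and Pfkfb3 at the start inside its gene body, chr2:11502041-11502340 (−).
Aspscr1: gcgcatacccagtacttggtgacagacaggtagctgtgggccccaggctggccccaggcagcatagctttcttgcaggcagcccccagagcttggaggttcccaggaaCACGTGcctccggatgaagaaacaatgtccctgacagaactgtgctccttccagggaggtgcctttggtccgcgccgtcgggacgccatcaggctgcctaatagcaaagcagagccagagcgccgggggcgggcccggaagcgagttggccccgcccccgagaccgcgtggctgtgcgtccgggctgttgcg
Pfkfb4: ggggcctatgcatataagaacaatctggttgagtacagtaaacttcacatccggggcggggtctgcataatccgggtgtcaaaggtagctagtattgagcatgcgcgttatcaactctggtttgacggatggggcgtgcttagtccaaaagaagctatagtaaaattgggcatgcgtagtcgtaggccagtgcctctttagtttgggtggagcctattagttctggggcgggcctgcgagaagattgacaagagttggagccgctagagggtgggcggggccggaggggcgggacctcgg
Slc2a1: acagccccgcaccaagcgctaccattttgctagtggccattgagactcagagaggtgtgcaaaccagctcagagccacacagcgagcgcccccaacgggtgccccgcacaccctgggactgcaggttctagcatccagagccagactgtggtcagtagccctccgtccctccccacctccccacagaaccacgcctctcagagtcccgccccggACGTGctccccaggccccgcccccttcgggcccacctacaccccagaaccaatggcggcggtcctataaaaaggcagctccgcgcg
Pfkfb3: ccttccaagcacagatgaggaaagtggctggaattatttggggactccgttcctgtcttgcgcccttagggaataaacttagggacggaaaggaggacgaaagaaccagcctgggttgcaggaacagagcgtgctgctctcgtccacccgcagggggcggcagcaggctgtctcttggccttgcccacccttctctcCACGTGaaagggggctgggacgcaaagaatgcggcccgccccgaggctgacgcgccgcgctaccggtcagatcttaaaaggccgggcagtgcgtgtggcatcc
The E-box began 142 bases before this Aspscr1 start, the 1 of 3 annotated starts whose window held it, and 53 bases before this Pfkfb3 start, the 1 of 2, the single ACGTG core began 36 bases before the Slc2a1 start, and the Pfkfb4 window held neither. The other 2 Aspscr1 windows held neither, and the other Pfkfb3 window held ACGTG alone, 60 bases before its start. The Pfkfb3 window was chosen for display with its E-box known. Promoters were found for 9 of the 10 genes, 19 in all. Of these 19, 4 held CACGTG (1 each of Pfkm, Pfkfb3, Pdk2 and Aspscr1) and 8, from 6 genes, held ACGTG on either strand. Among all 32851 promoters of this length the shares were 7.15% and 19.6%. The forkhead motif TGTTTAC (3.65% of all promoters) and the glucocorticoid receptor half-sites GNACA and TGTNC with 3 bases between (0.475%) were in 0 of the 19, so these letters were not in these windows. The files do not say which start a transcript used.

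**Figure D2:**
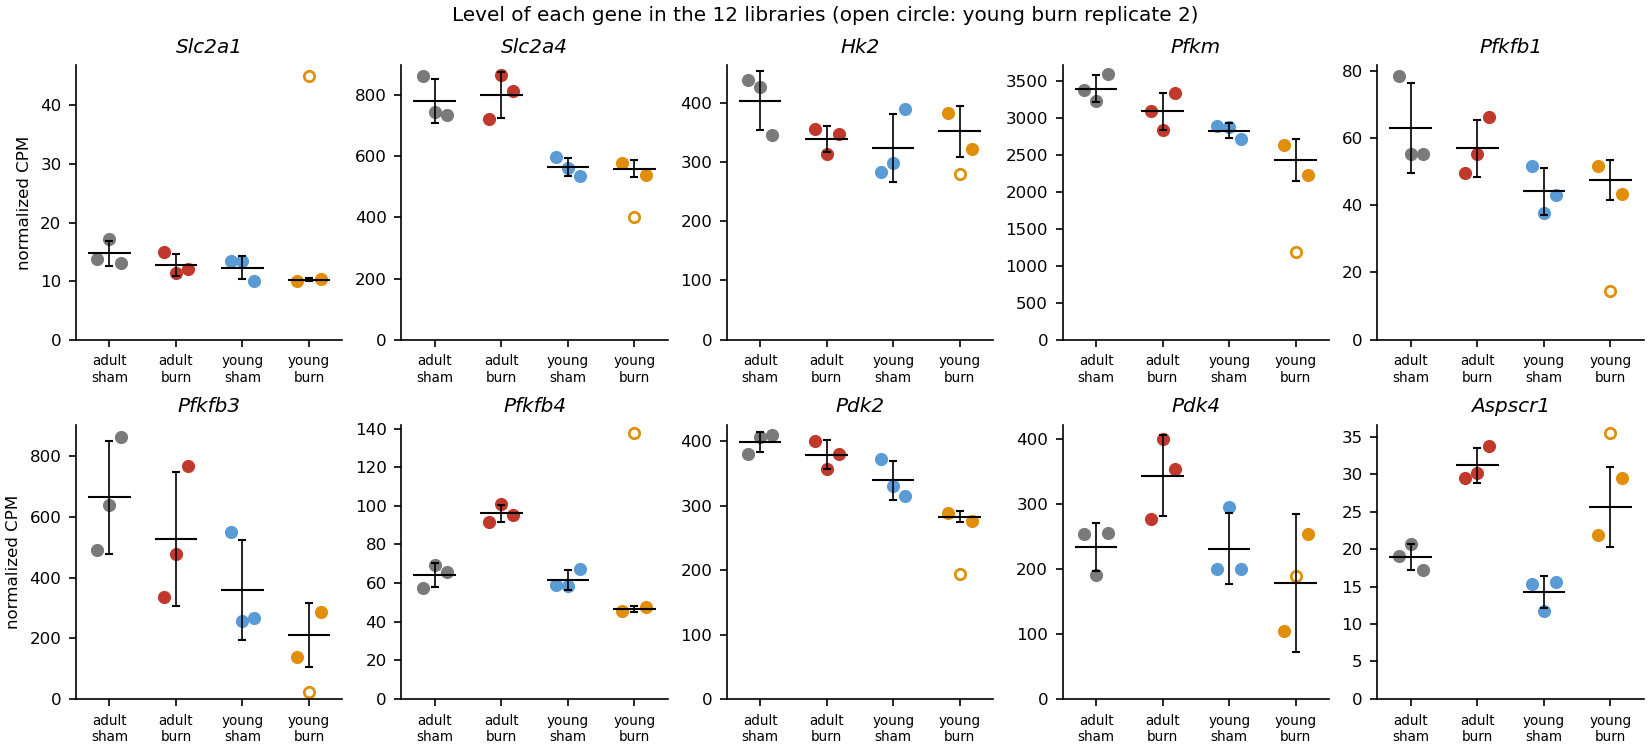
Normalized CPM (vertical axis, from 0) of each of the 10 genes in the 12 libraries by group, 1 point per library, with the mean and SD of each group drawn without young burn replicate 2 (open circle). Aspscr1 is higher in both burn groups than in the sham group of the same age, and Slc2a4 is lower in both young groups than in both adult groups. The open circle lies outside the other 11 libraries in 9 of 10 panels, and the share of all genes outside was not counted.

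The 6 comparisons were made with edgeR's quasi-likelihood test over 12651 genes in 11 libraries and over 12408 genes in 12, and calls were made below an adjusted p of 0.05. They share groups (adult sham serves 2 of them, for example), so the values below stand side by side and are not independent of each other. Between young and adult sham, 2 of the 10 were called (Slc2a4 and Pfkfb1, both lower in young) where 11.8% of all genes were, and 0 in the 12 libraries where 3.76% were. Between adult burn and adult sham, 2 were called (Pfkfb4 and Aspscr1, both higher after burn) against 0.909% of all genes, and 0 against 0.00806% in the 12 libraries. Between young burn and young sham, 1 was called (Aspscr1, higher) against 0.664%, and 0 against 0.0645%. Between the burn groups, 5 were called, all lower in young mice (Slc2a4, Pfkfb3, Pfkfb4, Pdk2 and Pdk4), against 20.7%, and 3 (Slc2a4, Pdk2 and Pdk4) against 10.8% in the 12 libraries. The interaction, the burn effect in young minus that in adult mice, called 1 (Pfkfb4) against 0.0949%, and 0 against 0% in the 12 libraries. With age as a covariate, the burn term called 1 (Aspscr1) against 2.15%, and the same gene against 0.717% in the 12 libraries.

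Where edgeR called 0 members in the 12 libraries, counts at an unadjusted p under 0.05 were 2 for the sham groups, 1 for adult burn, 3 for young burn and 1 for the interaction. Of all 12408 genes tested, 2505, 853, 2519 and 893 had such a p in the same comparisons. For these comparisons in the 12 libraries DESeq2 called 1, 0, 1 and 0 of the 10, and limma voom with sample weights called 1, 1, 1 and 0. The share of all genes called by these tools is not given. For the interaction in the 12 libraries, edgeR called 0 of 12408 genes, and 893 of them had an unadjusted p under 0.05. The median log2 fold change of the 10 genes was -0.30 between the sham groups, -0.11 for adult burn, -0.23 for young burn and -0.38 between the burn groups, where the median of all genes tested was within 0.01 of 0.

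**Figure D3:**
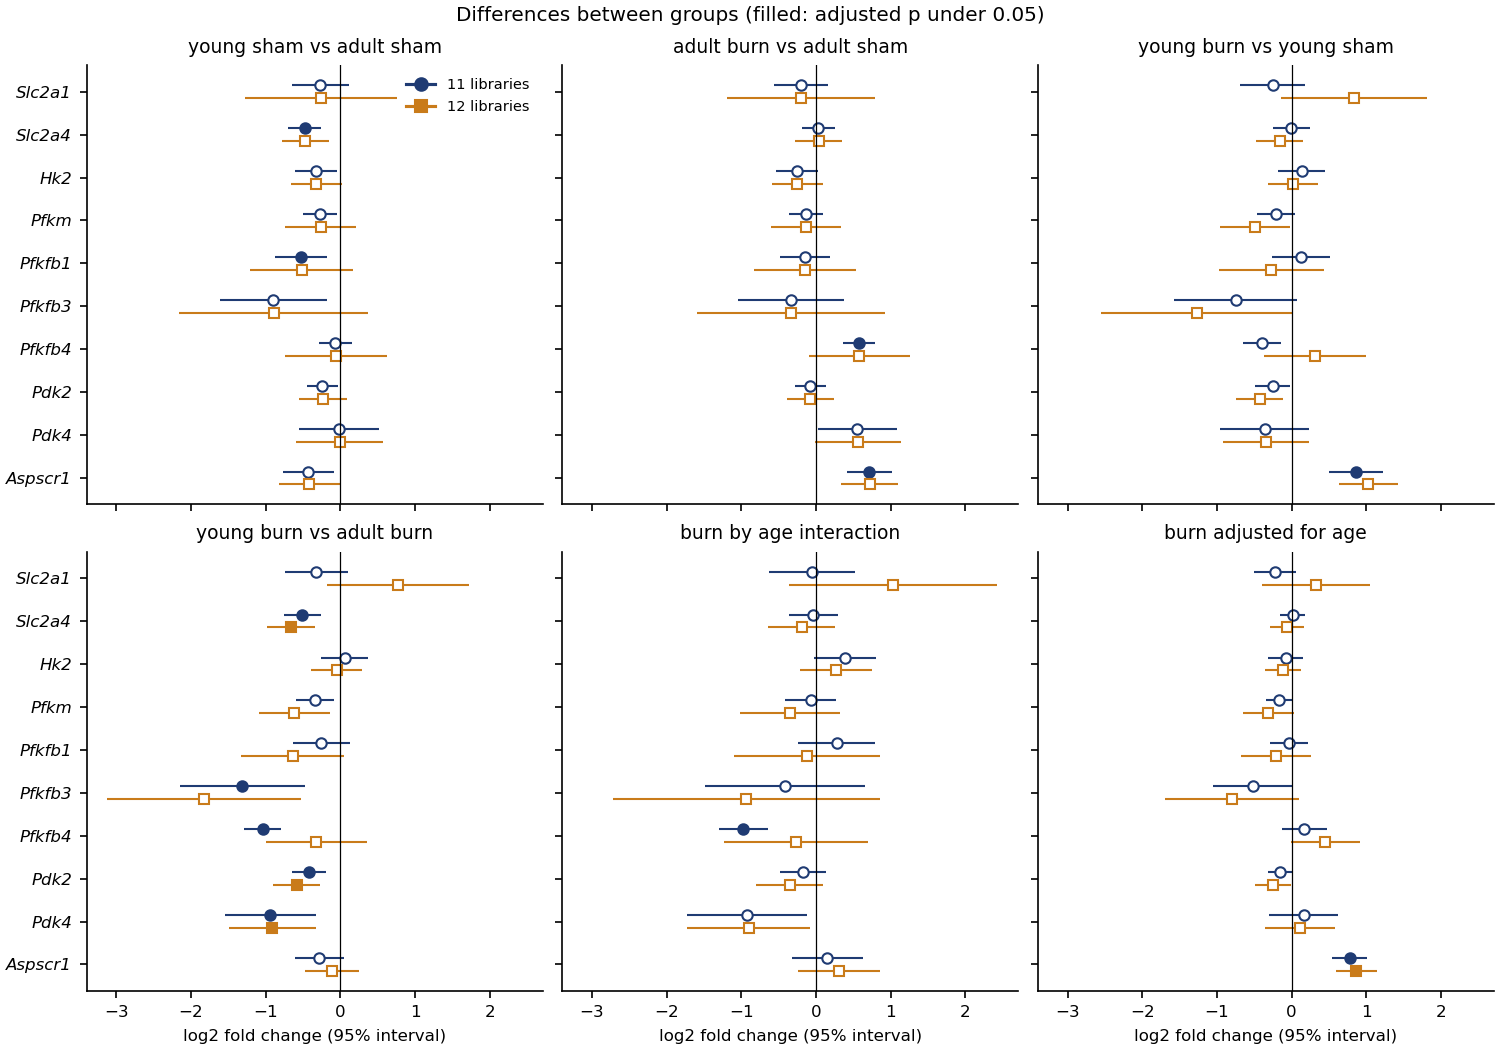
Log2 fold changes (horizontal axis) with 95% intervals of the 10 genes in the 6 comparisons, from the 11 libraries (circles) and all 12 (squares), filled where the adjusted p was under 0.05. Aspscr1 lies right of 0 in both burn comparisons, 9 of 10 genes lie left of 0 between the burn groups in either set of libraries, and the 12 libraries widen most intervals and move Slc2a1 and Pfkfb4 to the right in young burn.

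Aspscr1, the gene of the GLUT4 tether, was higher after burn at both ages. It lies on chr11:120672973-120709447 (+ strand, GRCm38) and shares 355 exon bases with the antisense gene Gm17178, whose reads cannot be told apart without the strand setting. Its levels were 19.0, 20.6 and 17.2 CPM in adult sham, 29.5, 30.2 and 33.8 CPM in adult burn, 15.3, 11.7 and 15.6 CPM in young sham, and 21.9, 35.4 (replicate 2) and 29.4 CPM in young burn. The burn and sham groups overlapped at neither age, with or without replicate 2. With age as a covariate it rose 1.71-fold (log2 0.78 ± 0.11 SE, adjusted p = 0.00319), and 1.82-fold in the 12 libraries (adjusted p = 0.0168). It passed the test under each of the 19 alternatives tried for this burn term, with log2 values from 0.69 to 0.87 and adjusted p from 3.33e-08 to 0.0168.

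Taken by age, Aspscr1 rose 1.64-fold in adult burn (log2 0.72 ± 0.14, adjusted p = 0.0283; 0.541 in the 12 libraries) and 1.82-fold in young burn (log2 0.86 ± 0.17, adjusted p = 0.0418; 2.04-fold and 0.0553 in the 12). In the 12 libraries DESeq2 called the rise in young burn (adjusted p = 0.000966) and not that in adult burn (0.552). Limma voom with sample weights called it in young burn (adjusted p = 0.0194) and in adult burn (0.0444). The difference between the burn effects of the ages was a log2 value of 0.15 (95% interval -0.33 to 0.62, adjusted p = 0.843). Young minus adult sham gave -0.43 (adjusted p = 0.0967). The call of Aspscr1 in adult burn was lost without adult burn replicate 2 (adjusted p = 0.0937) or 3 (0.115) and without adult sham replicate 1 (0.0943), 2 (0.0501) or 3 (0.129). That in young burn was lost with only the groups compared in the fit (0.0857) and without adult burn replicate 3 (0.0555), adult sham replicate 1 (0.0578), young burn replicate 3 (0.504) and young sham replicate 2 (0.125) or 3 (0.0820). A replicate block in the fit lost both of these Aspscr1 calls.

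Slc2a4, the insulin-responsive transporter, was lower in young than in adult mice. It lies on chr11:69942539-69948188 (− strand). Its levels were 862, 744 and 734 CPM in adult sham, 721, 866 and 812 CPM in adult burn, 596, 562 and 536 CPM in young sham, and 579, 401 (replicate 2) and 539 CPM in young burn. Every young library was below every adult library. Slc2a4 was 1.39-fold lower in young than in adult sham (log2 -0.48 ± 0.10, adjusted p = 0.0096; 0.0933 in the 12 libraries) and 1.42-fold lower in young than in adult burn (log2 -0.51 ± 0.12, adjusted p = 0.00804; 0.0154 in the 12). In the 12 libraries DESeq2 (adjusted p = 0.0276) and limma voom with sample weights (0.00882) called Slc2a4 lower in young sham. The burn comparisons gave log2 values of 0.03 (95% interval -0.19 to 0.25) in adult and 0.00 (-0.25 to 0.25) in young mice. The call between the sham groups was lost without adult sham replicate 1 (adjusted p = 0.0504), and that between the burn groups without young burn replicate 3 (0.0831).

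Slc2a1, the transporter of basal uptake, passed in none of the 6 comparisons under either set of libraries. It lies on chr4:119108711-119137983 (+ strand), where 105 exon bases are shared with the antisense gene Gm12868. Its levels were 13.9, 17.2 and 13.2 CPM in adult sham, 14.9, 11.4 and 12.1 CPM in adult burn, 13.4, 13.4 and 10.0 CPM in young sham, and 10.0, 45.1 (replicate 2) and 10.4 CPM in young burn. Between young burn and young sham the log2 value was -0.25 (95% interval -0.69 to 0.18) without replicate 2 and 0.84 (-0.15 to 1.82) with it. The 1 library thus set the sign. The ratio of Slc2a4 to Slc2a1 per kilobase was 8.96 in young burn replicate 2 and 42.4 to 76.7 in the other 11 libraries.

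Hk2 and Pfkm, the enzymes of trapping and commitment, passed in none of the 6 comparisons in edgeR with the 11 or the 12 libraries. Hk2 ran from 283 to 439 CPM over the 11 libraries and its largest log2 value was the interaction, 0.39 (95% interval -0.03 to 0.81, adjusted p = 0.484; 0.27 in the 12 libraries). Pfkm was at 3373, 3221 and 3589.7 CPM in adult sham, 3097, 2834 and 3332 CPM in adult burn, 2893, 2879.6 and 2707 CPM in young sham, and 2634, 1187 (replicate 2) and 2227 CPM in young burn. The young burn libraries lay below those of young sham and of adult burn, with or without replicate 2. For Pfkm between the burn groups the log2 value was -0.34 ± 0.12 (adjusted p = 0.0574) and -0.62 ± 0.22 in the 12 libraries (adjusted p = 0.0874). DESeq2 placed it past the threshold at -0.36 in the 11 libraries (adjusted p = 0.0117) and at -0.63 in the 12 (0.0421). Limma voom with sample weights on the 12 libraries did so too (-0.45, adjusted p = 0.0199). Pfkm shares 359 exon bases with neighbouring genes, Senp1 on the other strand among them.

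Pfkfb4 was the 1 gene of the 10 whose response to burn was called different between the ages. It lies on chr9:108991778-109032228 (+ strand) and shares no exon bases with another gene. Its levels were 57.3, 69.6 and 65.8 CPM in adult sham, 91.9, 101 and 95.2 CPM in adult burn, 58.9, 58.5 and 67.5 CPM in young sham, and 45.3, 137 (replicate 2) and 47.6 CPM in young burn. All 3 adult burn libraries were above all sham libraries, while young burn replicates 1 and 3 were the lowest and replicate 2 the highest of the 12. Pfkfb4 rose 1.49-fold in adult burn (log2 0.58 ± 0.10, adjusted p = 0.0176). Young burn gave -0.39 ± 0.12 against young sham (adjusted p = 0.123) and was 2.06-fold lower than adult burn (log2 -1.04 ± 0.12, adjusted p = 8.95e-05). The interaction was -0.97 ± 0.15 (adjusted p = 0.0241).

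In edgeR each of these calls was lost when young burn replicate 2 was kept. With it, Pfkfb4 gave 0.58 in adult burn (adjusted p = 0.748), 0.32 in young burn (0.592), -0.32 between the burn groups (0.538) and -0.26 for the interaction (0.913). In edgeR the sign in young burn turned, and the standard error of the interaction went from 0.15 to 0.45. DESeq2 on the 12 libraries also lost each of these calls (log2 -0.32 between the burn groups, adjusted p = 0.593). Limma voom with sample weights on the 12 libraries kept the call between the burn groups (log2 -0.95, adjusted p = 0.000892). It lost those in adult burn (adjusted p = 0.0922) and for the interaction (0.183). The limma voom value in young burn against young sham stayed negative (-0.32, adjusted p = 0.295). The adult burn call was also lost without adult burn replicate 2 (adjusted p = 0.0784) or 3 (0.0625) and adult sham replicate 1 (0.0714) or 3 (0.0528). The interaction call was lost with scaling by library size alone (0.0686) and without adult burn replicate 2 (0.0718) or 3 (0.0743), adult sham replicate 1 (0.0626), young burn replicate 1 (0.157) or 3 (0.0944) and young sham replicate 3 (0.0693). A replicate block in the fit lost the interaction call too.

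Pfkfb3, the isoform whose product favours making the activator, had the widest relative spread of the 10 in adult burn and young sham. It lies on chr2:11471433-11554077 (− strand). Its levels were 492, 639 and 863 CPM in adult sham, 336, 479 and 768 CPM in adult burn, 549, 258 and 268 CPM in young sham, and 137, 24.5 (replicate 2) and 286 CPM in young burn. Adult burn alone ran from 336 to 768 CPM, and young burn lay wholly below adult burn. Pfkfb3 was 2.48-fold lower in young than in adult burn (log2 -1.31 ± 0.39, adjusted p = 0.0287; -1.82 ± 0.60 and 0.0685 in the 12 libraries). That call was lost in DESeq2 on the 11 libraries (adjusted p = 0.0775) and in edgeR without adult burn replicate 3 (0.107) or young burn replicate 1 (0.254). In the 12 libraries DESeq2 did not call Pfkfb3 between the burn groups (adjusted p = 0.0832), and limma voom with sample weights did (0.0248). In edgeR on the 11 libraries Pfkfb3 against its own sham group gave -0.34 in adult (adjusted p = 0.716) and -0.75 in young burn (0.358). Between the sham groups it gave -0.90 (adjusted p = 0.0955).

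Pfkfb1, known best as the liver isoform, was at 78.4, 55.3 and 55.1 CPM in adult sham, 49.5, 55.1 and 66.1 CPM in adult burn, 51.6, 37.7 and 42.9 CPM in young sham, and 51.6, 14.6 (replicate 2) and 43.3 CPM in young burn. It shares 123 exon bases with Apex2 on the other strand of chromosome X. It was 1.44-fold lower in young than in adult sham (log2 -0.53 ± 0.16, adjusted p = 0.0465; 0.394 in the 12 libraries), with 2 of 3 adult sham libraries just above the highest young sham library. The Pfkfb1 call was lost with only the groups compared in the fit (adjusted p = 0.0641) and without adult burn replicate 2 (0.0566), adult sham replicate 1 (0.206) or 2 (0.0589), young burn replicate 1 (0.0548) or 3 (0.0550) and young sham replicate 2 (0.161) or 3 (0.143). A replicate block lost it too, as did DESeq2 (0.436) and limma voom with sample weights (0.0875) on the 12 libraries. Per kilobase, Pfkfb3 stood 6.64 ± 1.59 times above Pfkfb4 in adult sham, 3.54 ± 1.48 times in adult burn and 3.80 ± 1.91 times in young sham (n = 3 each). In young burn the ratio was 1.96 and 3.87 in replicates 1 and 3 and 0.115 in replicate 2, the 1 library in which Pfkfb4 exceeded Pfkfb3.

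**Figure D4:**
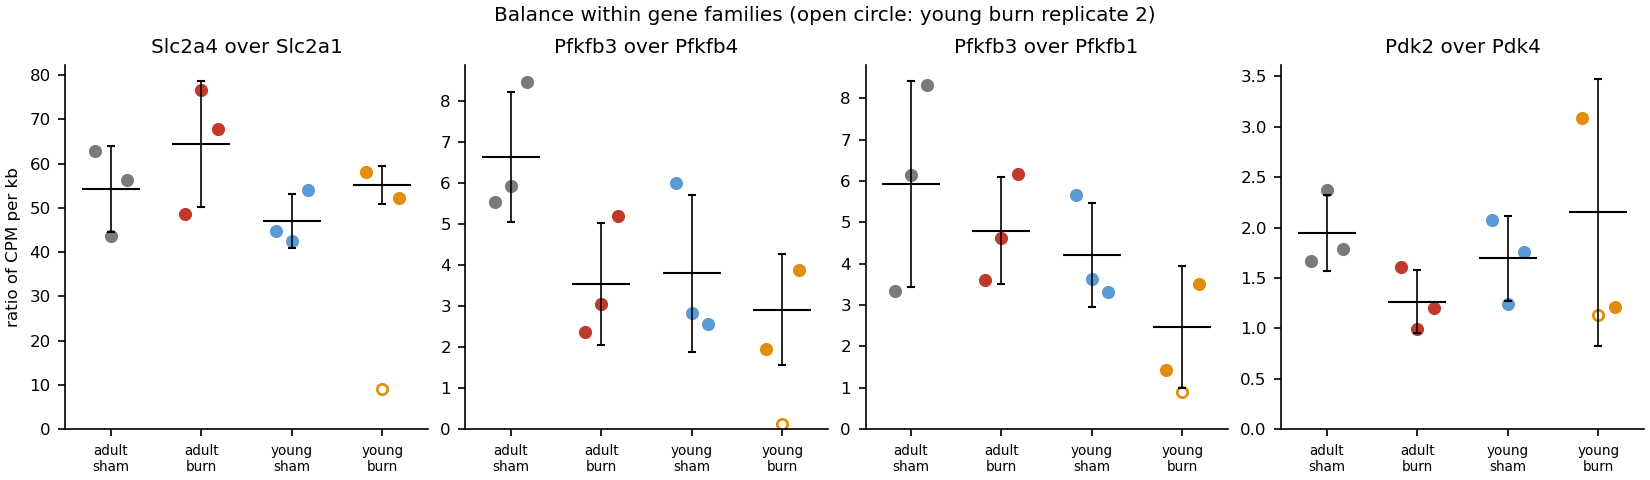
Ratios of CPM per kilobase (vertical axis, from 0) within the transporter, Pfkfb and pyruvate dehydrogenase kinase families in each library by group, with the mean and SD without young burn replicate 2 (open circle). That library has the lowest Slc2a4 to Slc2a1 (8.96) and Pfkfb3 to Pfkfb4 (0.115) ratios of the 12, and the groups overlap in most panels.

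The pyruvate dehydrogenase kinase genes Pdk2 and Pdk4 were lower in young than in adult burn. Pdk4, on chr6:5483351-5496309 (− strand), was at 254, 190.1 and 254 CPM in adult sham, 277, 399.6 and 353 CPM in adult burn, 199.5, 295 and 199 CPM in young sham, and 104, 189.5 (replicate 2) and 254 CPM in young burn. Adult burn lay above adult sham and above young burn in every library, while young burn and young sham overlapped. Pdk4 was 1.91-fold lower in young than in adult burn (log2 -0.94 ± 0.29, adjusted p = 0.0313; -0.91 and 0.0457 in the 12 libraries). Adult burn against sham gave 0.56 ± 0.25 (adjusted p = 0.340), young burn -0.36 ± 0.28 (0.569) and the interaction -0.92 ± 0.38 (unadjusted p = 0.0278, adjusted p = 0.397). The Pdk4 call between the burn groups was lost in DESeq2 on the 11 libraries (adjusted p = 0.0670) and with scaling by library size alone (0.0503), and in edgeR without adult burn replicate 2 (0.0939) or 3 (0.0698) and, with a log2 value of -0.43, without young burn replicate 1 (0.297).

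Pdk2, the more evenly expressed kinase, lies on chr11:95026258-95041354 (− strand). It was at 381, 406 and 410.4 CPM in adult sham, 401, 357 and 381 CPM in adult burn, 373, 330.1 and 315 CPM in young sham, and 289, 194 (replicate 2) and 277 CPM in young burn. Young burn was below every other library, with or without replicate 2. Pdk2 was 1.34-fold lower in young than in adult burn (log2 -0.42 ± 0.11, adjusted p = 0.0151; -0.58 and 0.0244 in the 12 libraries). Against young sham it gave -0.25 ± 0.11 (unadjusted p = 0.0346, adjusted p = 0.270). The Pdk2 call was lost with scaling by library size alone (adjusted p = 0.0521) and without young burn replicate 1 (0.0805) or 3 (0.113).

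Markers of other fibre and cell types moved in the same comparisons. In adult burn against adult sham, 3 of 8 slow oxidative fibre markers fell (Myl2, Myl3 and Myh2), with a median log2 value of -1.01 over the list, and 0 of 8 rose. Between young and adult burn, 4 of 8 slow fibre markers were higher in young, as were 4 of 6 macrophage markers (C1qa, C1qb, C1qc and Adgre1) and 3 of 5 endothelial markers (Emcn, Tek and Cdh5). With age as a covariate, 5 of 6 macrophage markers were higher after burn. Macrophage markers summed to 157 to 184 CPM in adult sham, 200.8 to 260.3 CPM in adult burn, 154 to 212 CPM in young sham and 289 to 470.3 CPM in young burn. Their part in the differences of the glucose genes was not tested.

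The rest of the pathway was read from 6 lists of 95 genes, of which 93 were tested in the 11 libraries. Between young and adult burn, 27 of 93 were called (29%, against 20.7% of all genes), 7 higher and 20 lower in young. Glycogen metabolism had the most: 9 of 16 genes were lower and 2 higher in young burn, with a median log2 value of -0.52, and 8 were lower and 1 higher of 15 in the 12 libraries. The lower genes with the smallest p were Ugp2, which makes the glucose donor for glycogen (1319 ± 74.8 CPM in adult burn, n = 3, and 713 ± 1.58 in young burn, n = 2, log2 -0.88, adjusted p = 0.000499), Epm2a, the glycogen phosphatase laforin (-0.84, 0.00109), and Phkb, a subunit of phosphorylase kinase (-0.59, 0.00275). The higher genes were led by Ppp1r3d, a glycogen-targeting phosphatase subunit (0.72, 0.0254), Pygb, the brain-type phosphorylase (0.60, 0.0300), and Pdhb, a subunit of pyruvate dehydrogenase (0.33, 0.0315). Of the 20 genes of GLUT4 traffic and insulin signalling 5 were lower and 0 higher. With the 12 libraries Ugp2 no longer passed (-0.50, adjusted p = 0.155), with 1377 CPM in replicate 2.

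Between young and adult sham, 23 of 93 were called (24.7%, against 11.8% of all genes), 6 higher and 17 lower in young, and 7 of 92, all lower, in the 12 libraries. Of the glycolytic enzymes 4 of 19 were higher and 1 lower, whereas 5 of 16 glycogen genes and 5 of 20 genes of GLUT4 traffic and insulin signalling were lower. Those lower in young sham with the smallest p were Tigar, which removes the activating bisphosphate (log2 -0.69, adjusted p = 0.000741), Ugp2 (-0.77, 0.000905) and Irs2, an adaptor of the insulin receptor (-1.05, 0.00112). Those higher were led by Prkag3, the AMPK subunit of fast fibres (1.02, 0.0114), Pik3ca, a catalytic subunit of the insulin-signalling lipid kinase (0.39, 0.0178), and Pgam2, the muscle phosphoglycerate mutase (0.57, 0.0334).

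Few of these genes were called after burn. In adult burn 2 of 93 were called (2.15%, against 0.909% of all genes). Ldhb, the lactate dehydrogenase subunit of oxidative fibres, fell from 235 ± 14.6 to 123 ± 24.3 CPM (n = 3 each, log2 -0.93, adjusted p = 0.0184), and Egln3 rose from 45.7 ± 11.4 to 90.6 ± 12.4 CPM (0.99, 0.0259). In young burn 2 of 93 rose (against 0.664% of all genes), Egln3 (1.38, 0.0189) and Gbe1, the glycogen branching enzyme (0.71, 0.0447). With age as a covariate Egln3 (1.15, 0.00241), Gbe1 (0.59, 0.00804) and Ugp2 (0.40, 0.0234) rose, 3 of 93 (3.23%, against 2.15%). In the 12 libraries edgeR called 0 of 92 in adult burn (6 at an unadjusted p under 0.05, 0 in DESeq2 and 1 in limma voom) and 0 in young burn (27 below 0.05 before adjustment, 11 in DESeq2 and 5 in limma voom). Of all 12408 genes tested there, 853 in adult burn and 2519 in young burn were below 0.05 before adjustment. With age as a covariate edgeR called 1 of the 92, Gbe1 (0.61, 0.0233). For the interaction in the 11 libraries edgeR called 0 of 93, with 14 at an unadjusted p under 0.05 and 1 called in DESeq2. Of all 12651 genes, 1410 had such a p.

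**Figure D5:**
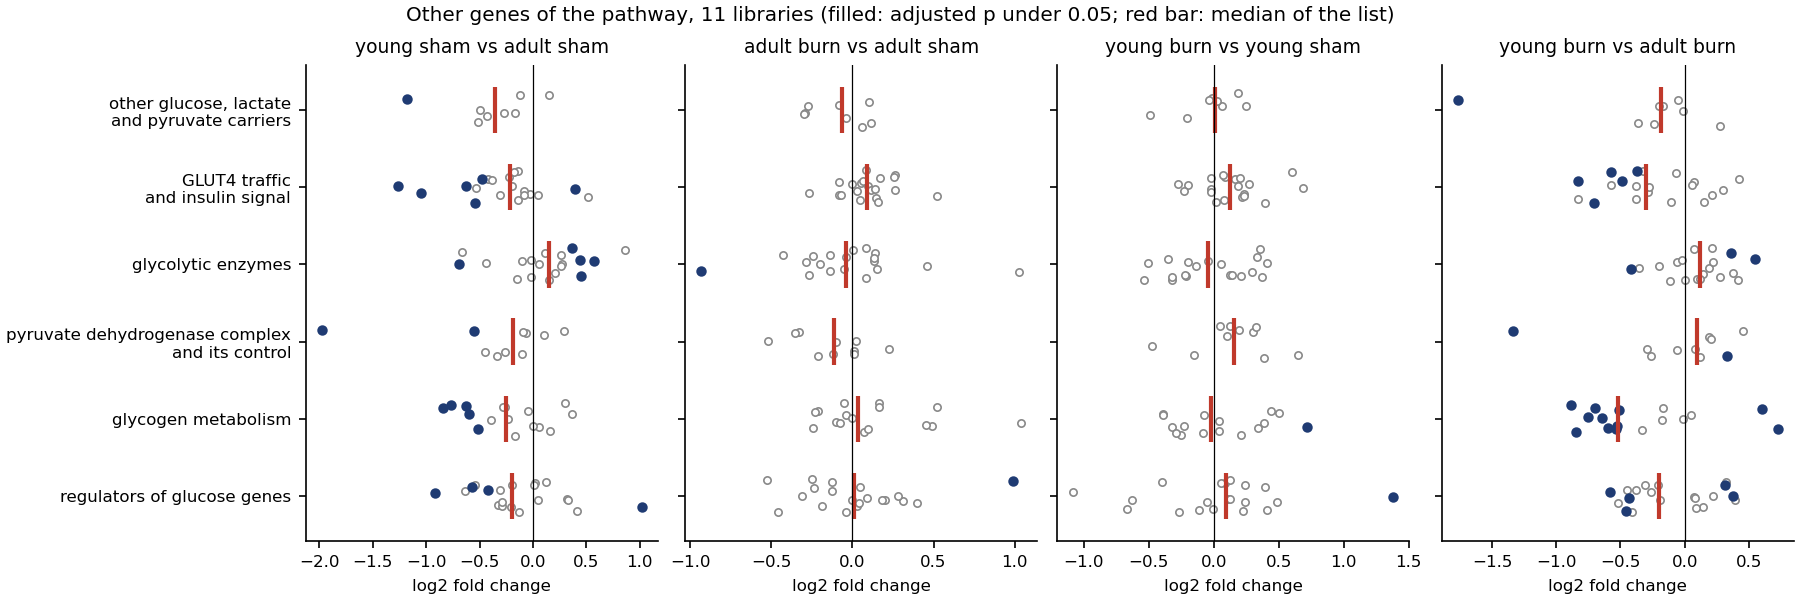
Log2 fold changes (horizontal axes, each with its own range) of the other pathway genes in 6 lists and 4 comparisons from the 11 libraries, 1 point per gene, filled where the adjusted p was under 0.05, with the median of each list as a red bar. Between the burn groups the glycogen list lies to the left, with a median of -0.52, while few points are filled in the comparisons of burn with sham.

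Each gene's closest match among all genes tested was the one with the highest Pearson correlation of log2 CPM over the 11 libraries, which share the 4 groups and the depth of each library. Aspscr1 was most like Psmb2, a proteasome subunit (r = 0.981, and 0.811 in the 12 libraries). Slc2a4 was most like Fem1a (0.965), Pdk2 like Rfk, the riboflavin kinase (0.957), and Pfkfb3 like Nr1d1, the clock repressor REV-ERB alpha (0.956, and 0.940 in the 12). Nr1d1 ran from 165 to 234 CPM in adult sham and from 75.8 to 80.7 CPM in young burn replicates 1 and 3, with 44.9 CPM in replicate 2. No source used here gives the hour of sampling. Pfkm was most like Tmem11 (0.948), Pfkfb4 like Zrsr2 (0.947), Pfkfb1 like Lrig1 (0.936), Hk2 like Acy1 (0.933), Slc2a1 like Ppp1r8 (0.906) and Pdk4 like Gm16378 (0.902). These are descriptions over 11 points, each the highest found among all genes tested.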

How the data were processed

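Messenger RNA of gastrocnemius was measured in 12 libraries of 3 mice per group. The values are raw counts per gene that the authors deposited after aligning paired reads of 75 bases to GRCm38 with STAR and counting with its GeneCounts option on Gencode M25. The submitters' processing notes name STAR 2.7.5c. No source used here gives the strand counted or the batch or date of sequencing. The miRNA libraries were not used here. Symbols, positions and exon lengths came from Gencode M21 (GRCm38), where 260 of the 55401 genes had no entry.

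Tests were run with edgeR 4.0.16 in R 4.3.3 (TMM scaling, filterByExpr at 10 counts and a total of at least 15, quasi-likelihood F test, two-sided, Benjamini-Hochberg adjustment over all genes tested, calls at an adjusted p under 0.05), with limma 3.58.1 and DESeq2 1.42.0 as alternatives. Young burn replicate 2 was left out of the leading values, as in the study's heat map, and kept in the alternative with all 12 libraries. CPM in the text are scaled over all 12 libraries, and log2 CPM for correlations used a prior count of 2. All 10 genes are named in each comparison, of the other pathway genes at most the 3 with the smallest p in each direction among those called, and of marker genes those called or moving with a member. Members, lists, tests and motifs were chosen with earlier results of these data known. The tests were checked on simulated counts. Each library is 1 mouse. No source used here says that numbers pair samples, and the leading fit treats libraries as unpaired. Deviations of same-numbered libraries from their group means correlated above 0.1 in 3 of 18 pairs, with r from -0.2 to 0.145. Differently numbered pairs were not compared, so these values cannot decide whether numbers pair samples. Alternatives were other tools, scaling, no low-count filter, a replicate block, only the groups compared, and each library left out.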

Additional observations from a re-analysis of the deposited data

Results flagged for a closer look

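The burn effect on Pfkfb4 was called different between the ages in edgeR without young burn replicate 2. The interaction was then a log2 value of -0.97 (adjusted p = 0.0241). Pfkfb4 was higher after burn in 3 of 3 adult burn libraries and below all young sham libraries in 2 of 2 young burn libraries. With young burn replicate 2 the interaction was -0.26 in edgeR (adjusted p = 0.913). It was called under 8 of the 19 alternatives tried.

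Young burn replicate 2, which the leading values leave out, carried levels above every sham library for 3 of the genes. Slc2a1 was at 45.1 CPM there, against 10.0 to 17.2 CPM in the other 11 libraries. Pfkfb4 was at 137 CPM, against 45.3 to 101 CPM. Aspscr1 was at 35.4 CPM, against 11.7 to 33.8 CPM. The sums of 744 CPM of immediate early and heat shock genes and 27.4 CPM of neutrophil markers were also the highest of the 12 in that library, and their part in these levels was not tested. Slc2a4, Hk2, Pfkm, Pfkfb1, Pfkfb3 and Pdk2 were below all other 11 libraries in young burn replicate 2. The share of all genes tested outside that range was not counted, so these levels are not read as particular to this pathway. Groups of 3 libraries are too small for a test of single outlying libraries.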

How the results depend on the processing

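The burn term of Aspscr1 with age as a covariate kept its direction and its call under all 19 alternatives, and over 1180 values of single genes under the alternatives 0 called values turned sign. The counts of called genes were less stable, and the cause of these moves was not tested beyond the libraries each setting holds. The share of all genes called is given above for edgeR with the 11 and with the 12 libraries. For every other setting in this section it is not given, so those counts cannot be set against a background. In the order young against adult sham, adult burn, young burn, young against adult burn, interaction and burn with age as a covariate, edgeR called 2, 2, 1, 5, 1 and 1 of the 10 genes and 23, 2, 2, 27, 0 and 3 of the other pathway genes in the 11 libraries. All 12 libraries gave 0, 0, 0, 3, 0 and 1 of the 10, and 7, 0, 0, 16, 0 and 1 of the others. DESeq2 with 12 libraries gave 1, 0 and 0 of the 10 for sham, adult burn and the interaction, and 13, 0 and 11 of the others for sham, adult burn and young burn. DESeq2 with 11 libraries gave 4, 7, 1 and 7 of the others for adult burn, young burn, the interaction and burn with age. Limma voom with 12 libraries gave 1, 1 and 0 of the 10 for sham, adult burn and the interaction, and 1 and 5 of the others for adult and young burn.

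Scaling by library size alone moved the median of all genes by -0.13 between the sham groups, by 0.16 in young burn and by 0.17 in the interaction, and called 7, 3 and 0 of the 10 for sham, between burns and the interaction, and 35 and 6 of the others for sham and young burn. Relative to that shift Slc2a4 between the sham groups, at -0.61, stayed lower. Without a filter on low counts 4, 2, 2 and 2 of the 10 were called for sham, young burn, the interaction and burn with age, and 8, 9, 5 and 11 of the others for adult burn, young burn, the interaction and burn with age. Only the groups compared gave 1 for sham and 0 for young burn.

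The replicate block, though no source used here pairs samples by number, gave 1, 1, 0, 5, 0 and 1 of the 10, and 1, 0 and 16 of the others for adult burn, young burn and between burns. Leaving out each library in turn gave 0 to 4, 0 to 2, 0 to 1, 2 to 6, 0 to 1 and 1 to 1 of the 10, and 9 to 28, 0 to 3, 0 to 4, 6 to 31, 0 to 0 and 2 to 5 of the others. With 2 or 3 mice per group and totals from 4392605 to 5688512 counts, intervals were wide for some of the 10 genes, with a standard error between the burn groups of 0.39 for Pfkfb3 and 0.29 for Pdk4 in the 11 libraries.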
